A study of Rattus with 4 samples.

Results

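The H/ACA box small nucleolar RNAs (snoRNAs) of cultured rat cardiac cells were compared between a pulldown with anti-NONO antibody and the input RNA. Members were the rows of the deposited read table typed as snoRNA whose description held SNORA or H/ACA, with no minimum on reads. This gave 87 members of 13731 listed genes, on 21 chromosomes, out of 136 snoRNA rows; another 35 rows were of the C/D box class and 14 of neither description. The 87 rows carry 56 different RNA names, since 20 names stand on more than 1 row (51 rows). In 31 members the RefSeq gene table gives a Snora symbol, and in all 31 its number was the one in the description. The remaining members are known by placeholder symbols, so each RNA is named here by its description and its row by its symbol.

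H/ACA snoRNAs fold into hairpins joined by a hinge with the H box and closed by the ACA box. They sit in a particle of the pseudouridine synthase dyskerin (Dkc1) with Gar1, Nhp2 and Nop10, and most of them guide the conversion of uridine to pseudouridine in ribosomal RNA. In mammals most are cut out of introns of protein-coding or noncoding host genes, so their own level and that of the host messenger RNA can part. NONO binds RNA and DNA in the nucleus and helps to form paraspeckles on the noncoding RNA Neat1. The assay, RIP-seq, sequences what comes down with a protein beside the starting RNA.

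The NONO IP group held 2 libraries, labelled with an anti-NONO antibody and transfection of siRNA against NONO. The Input group held 2 libraries, labelled with no antibody and transfection of an empty vector. As labelled, the groups thus differ in transfection as well as in precipitation, and these cannot be told apart; no library with a control antibody was used here. All 4 titles name H9C2, a line derived from embryonic rat heart with myoblast character, whereas the growth protocol names a line of rat cardiac fibroblasts. Gene counts came to 279410 and 264059 reads in NONO IP and to 249548 and 238776 in Input. All 9 fibroblast markers looked for were listed, with 39711 reads in NONO IP and 38075 in Input, most of them on Col1a1, Col1a2 and Col3a1. Dcn had no read in NONO IP and 2 and 2 in Input, and Tcf21 had 6 and 2 in NONO IP and 2 and 3 in Input. The smooth muscle markers, 4 of 4 listed, held 709 reads in NONO IP and 1050 in Input. The skeletal myoblast markers held 6 reads in NONO IP and 15 in Input, with 1 of 5 genes listed, and the cardiomyocyte markers 155 in NONO IP and 106 in Input over 7 of 8 genes. Nono itself had 3 and 3 reads in NONO IP and 21 and 9 in Input. The labels do not say whether the libraries of a group came from separate cultures, so the p-values speak only of the spread among these libraries, and that spread may be technical.

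Pooled over all 87 members, H/ACA snoRNAs took a larger share of the NONO IP libraries than of the inputs. They held 2833 and 2107 reads in NONO IP, against 408 and 385 reads in Input. This was 1.01% and 0.798% of gene counts in NONO IP (95% Wilson intervals 0.977 to 1.05% and 0.765 to 0.833%). In Input it was 0.163% and 0.161% (0.148 to 0.180% and 0.146 to 0.178%). The groups did not overlap, and the mean share was 0.906 ± 0.153% in NONO IP and 0.162 ± 0.00160% in Input (SD, n = 2 each), a ratio of 5.58. The share gets no p, since the smallest exact two-sided permutation p of 2 against 2 libraries is 0.333. Intervals cover counting error only, as reads carry no molecular identifiers.

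The ratio stayed near this value without the most abundant member and without ribosomal RNA. Without SNORA48 on row LOC120095433, which held the most reads, the ratio was 5.68. Reads of ribosomal RNA made up 32.0 ± 0.172% of gene counts in NONO IP and 41.7 ± 0.786% in Input (SD, n = 2 each), and with them left out the ratio was 4.79. As a share of summed RPKM (reads per kilobase, scaled by the authors), the members made up 18.3 ± 2.15% in NONO IP and 3.49 ± 0.00243% in Input, a ratio of 5.25.

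**Figure D1:**
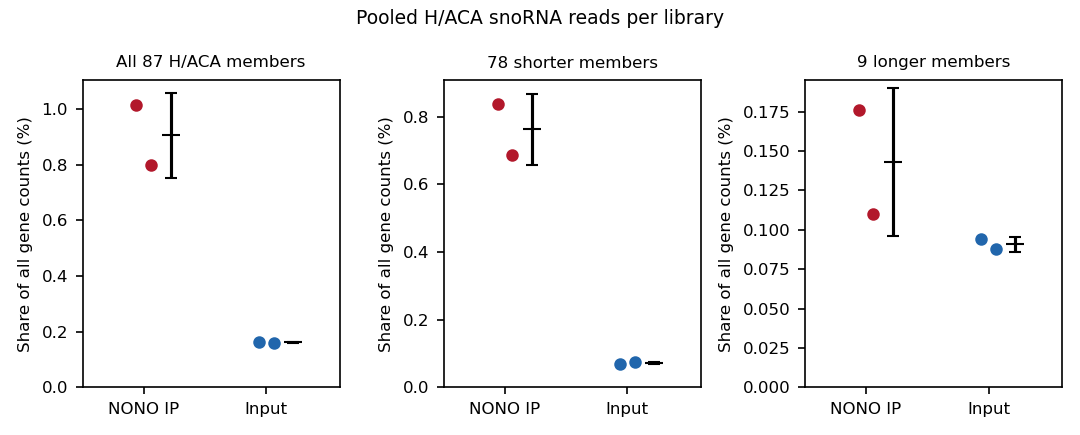
Share of all gene counts (%, axes from 0) held by all 87 H/ACA members, by the 78 shorter and by the 9 longer ones; points are libraries, and the bar beside them is the mean ± SD (n = 2). All members together held 1.01% and 0.798% in NONO IP and 0.163% and 0.161% in Input, and the groups lie closest for the longer members.

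More members were detected in NONO IP as well. At least 1 read was counted on 76 and 71 members in NONO IP and on 44 and 49 in Input, at slightly higher gene totals in NONO IP. In Input 64 members had 3 reads or fewer, and 26 of these had none, while 6 members had no read in NONO IP. Both NONO IP shares lay above both input shares for 56 members and below them for 3, and the groups overlapped for 28. Over all listed genes, 27.5% lay above and 17.3% below in this sense. Most single members are thus thinly counted, with 41 of 87 below 10 reads over the 4 libraries and 13 at a single read.

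C/D box snoRNAs, which guide ribose methylation and are also mostly intronic, held 275 and 190 reads in NONO IP, against 184 and 166 in Input. Their share was 0.0852 ± 0.0187% in NONO IP and 0.0716 ± 0.00298% in Input (SD, n = 2 each), a ratio of 1.19. The number of H/ACA reads per C/D read, which does not depend on scaling between libraries, was 10.3 and 11.1 in NONO IP and 2.22 and 2.32 in Input. Its mean was 10.7 ± 0.557 in NONO IP and 2.27 ± 0.0720 in Input (SD, n = 2 each), a ratio of 4.72. The row with the most C/D reads, SNORD17 (LOC120102082), held 121 and 82 reads in NONO IP and 124 and 110 in Input. Without the member with the most reads in each class, the H/ACA to C/D ratio averaged 15.2 in NONO IP and 5.40 in Input, 2.81-fold apart. Of the 3 C/D rows with enough reads for a test, 1 rose (SNORD89, LOC120094944, 56 and 31 reads in NONO IP against 0 and 2 in Input) and 1 fell (SNORD17). The C/D class here holds only rows so described. The 14 snoRNA rows of neither description, among them rows named U3, U8, U13 and U83B, had a pooled ratio between those of the other groups of rows. They were set apart by wording alone and not by box type, so they may belong to either class. Their share was 0.118 ± 0.0133% in NONO IP and 0.0420 ± 0.000441% in Input (SD, n = 2 each), a ratio of 2.80. Of 5 such rows tested, 4 rose and 0 fell, beside 29.8% and 26.9% of all tested genes. Among those that rose, U85, U89 and U83B had fewer input reads than 23, the lowest sum of any tested gene. So had SNORD89 of the C/D rows. These rows were tested through their reads in NONO IP, which favoured a rise. The difference between the classes was not tested.

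Some rows outside the rule, related to the H/ACA class or not, also took larger shares of NONO IP than of Input. The type guide RNA of the deposited table (18 rows) took 0.411 ± 0.0994% of gene counts in NONO IP and 0.0247 ± 0.00531% in Input (SD, n = 2 each). The ratio of this type was 16.7, larger than the 5.58 of the H/ACA members. U85, a small Cajal body RNA that carries both box types in human, had 80 and 38 reads in NONO IP and 5 and 4 in Input. Its log2 fold change was 3.09 (SE 0.46, adjusted p = 2.36e-05, edgeR with Benjamini-Hochberg adjustment). Another row, named ACA64 after an H/ACA RNA but outside the rule's wording, had 5 and 9 reads in NONO IP and 1 and 2 in Input. U83B (LOC120094014) had 20 and 25 reads in NONO IP and 3 and 5 in Input, and rose by 1.88 (adjusted p = 0.00289, edgeR). A U3 row (LOC120095490) had 48 and 55 in NONO IP against 13 and 14 in Input, and rose by 1.34 (adjusted p = 0.000887, edgeR). The U3 row with the most reads (LOC120099037) was not called (0.32, adjusted p = 0.124, edgeR).

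Single members were tested with edgeR's quasi-likelihood test of NONO IP against Input, fitted over the whole table, with Benjamini-Hochberg adjustment over the 2920 genes that passed the filter on low counts. Of the 87 members, 33 were tested, and they held 93.1% of all member reads. At an adjusted p under 0.05, 27 rose in NONO IP and 2 fell, while 4 were not called. Of all tested genes, 29.8% were called higher and 26.9% lower. The median log2 fold change was 3.52 over the 33 members and 0.02 over all tested genes. A rise was also common among other short genes. Of the 35 other tested genes no longer than the longest member, 26 were called higher and 6 lower. Their median log2 fold change was 2.11, and 13 of them are typed as snRNA and 6 as snoRNA. Over all 2887 tested genes other than members, by contrast, the fold change tended to be larger in longer genes (Spearman rho = 0.297). The filter bears on the count of members called and on their median fold change. Of the 33, 27 had fewer input reads than the lowest sum that passed it (23 reads). These 27 were tested because of their reads in NONO IP. The 6 with input reads at or above that sum were SNORA48 (LOC120095433) and SNORA63, which rose, SNORA53 and SNORA81, which fell, and SNORA74 (LOC120098348) and SNORA23, which were not called.

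With no filter on counts, all 87 members were fitted, and 35 were called higher, 1 lower and 51 neither. The same fit called 8.59% of all 13731 genes higher and 4.73% lower, and the median log2 fold change was 2.55 over the members and 0.30 over all genes. On log2(RPKM + 1), where limma tested 73 members, 33 were called higher and 3 lower, against 5.19% and 18.8% of the 7576 genes tested. The total behind the authors' RPKM values was 2.38-fold larger in NONO IP than in Input, so that scale sets the groups differently.

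**Figure D2:**
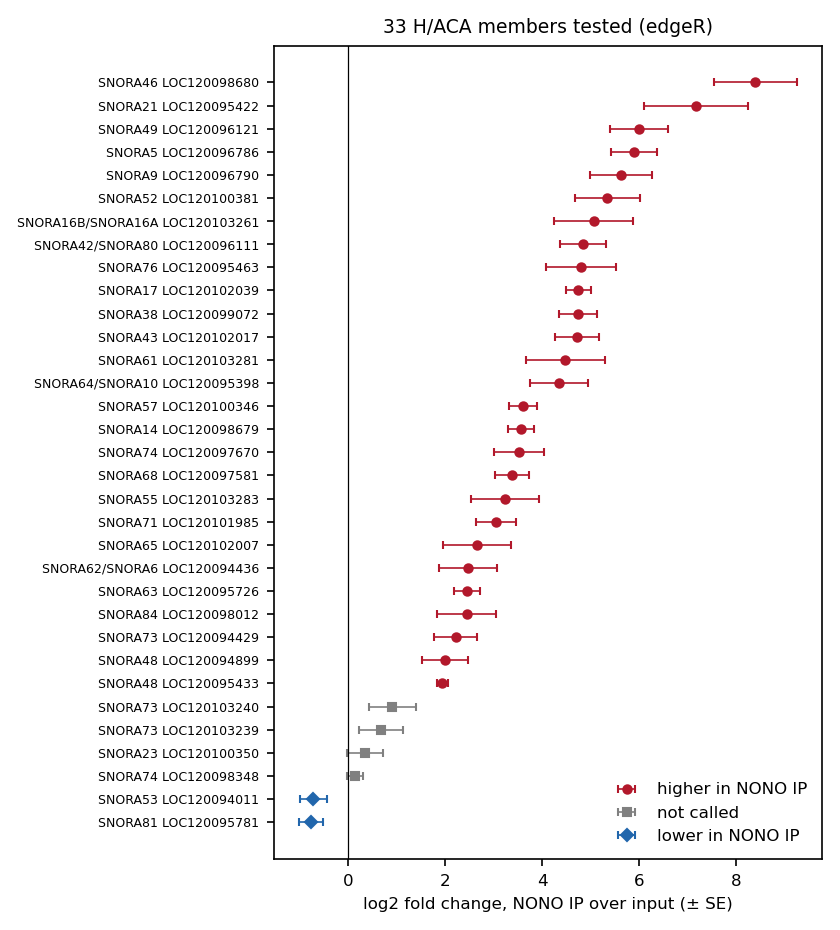
Log2 fold change of NONO IP over Input (x axis, ± SE, edgeR) for the 33 H/ACA members tested, in order of size. Called members above 0 run from 1.95 to 8.40, but the 2 highest, SNORA46 and SNORA21, had no input read, so the data give only a lower bound for their folds. Of the 33 members, 27 passed the filter through their NONO IP reads. 4 members were not called, and SNORA53 and SNORA81 lie below 0.

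SNORA48 had the highest level per length among H/ACA snoRNAs in both groups. Its row LOC120095433 on chromosome 10 had 505 and 464 reads in NONO IP, against 84 and 83 in Input. Scaled by TMM it reached 1684 ± 37.0 CPM (counts at 1 library total common to all) in NONO IP and 436 ± 4.59 CPM in Input (SD, n = 2 each). It rose by 1.95 in log2 (SE 0.11, adjusted p = 1.87e-10, edgeR), the smallest change among the members that rose. Per length it stood at 3775 and 3824 RPKM in NONO IP and 1538 and 1575 RPKM in Input. It made up 19.9 ± 2.97% of all H/ACA reads in NONO IP and 21.1 ± 0.686% in Input, so its place within the class differed by less than the spread of the NONO IP libraries.

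SNORA17 was the second most abundant member per length in NONO IP and the twelfth in Input. LOC120102039 on chromosome 3 had 201 and 171 reads in NONO IP, against 5 and 4 in Input, with no overlap. Its level was 646 ± 49.3 CPM in NONO IP and 23.5 ± 3.25 CPM in Input (SD, n = 2 each), and it rose by 4.75 in log2 (SE 0.27, adjusted p = 9.08e-11, edgeR). Its share of H/ACA reads was 7.61 ± 0.722% in NONO IP and 1.13 ± 0.132% in Input.

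SNORA63, also known as E3, lies in a translation factor gene, Eif4a2. LOC120095726 had 163 and 102 reads in NONO IP and 16 and 16 in Input. It rose by 2.45 in log2 (SE 0.26, adjusted p = 5.38e-07, edgeR), and both NONO IP libraries lay far above both inputs. SNORA14 (LOC120098679) had 131 and 122 reads in NONO IP and 6 and 8 in Input, and its log2 fold change was 3.57 (SE 0.27, adjusted p = 5.88e-09, edgeR). SNORA57 (LOC120100346) had 124 and 99 reads in NONO IP and 5 and 7 in Input, and its log2 fold change was 3.61 (SE 0.30, adjusted p = 1.85e-08, edgeR). In NONO IP, SNORA63 at 458 ± 133 CPM and SNORA14 at 440 ± 5.47 CPM (SD, n = 2 each) thus lay near the level of SNORA48 in Input.

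SNORA38 (LOC120099072) had 126 and 83 reads in NONO IP and 2 and 3 in Input, with a log2 fold change of 4.74. SNORA68 (LOC120097581) had 118 and 73 reads in NONO IP and 6 and 6 in Input, with a log2 fold change of 3.38. SNORA5 (LOC120096786), in a gene of mitochondrial RNA processing, Tbrg4, had 110 and 87 reads in NONO IP, against 2 and 0 in Input. For SNORA5 the input is too thin for a precise fold: the TMM-scaled ratio was 64.3 with an exact 95% interval of 17.6 to 534. SNORA42/SNORA80 (LOC120096111) had 80 and 58 reads in NONO IP and 1 and 2 in Input, a ratio of 30.01 (10.1 to 147). SNORA43 (LOC120102017) had 65 and 62 reads in NONO IP and 2 and 1 in Input, a ratio of 27.6 (9.24 to 136). All 5 rose by edgeR's test, and in each the lower NONO IP library had more than 10 times the reads of the higher input.

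2 tested members had no input read. SNORA46 (LOC120098680), inside Cnot1, a scaffold gene of the deadenylase complex, had 59 and 42 reads in NONO IP. With 3 counts over the input group as the floor, it was at least 21.96-fold higher in NONO IP. SNORA21 (LOC120095422) had 26 and 17 reads in NONO IP and was at least 9.35-fold higher. Another 13 tested members had 1 to 3 input reads. Among these, SNORA49 (LOC120096121) had 65 and 50 reads in NONO IP and 0 and 1 in Input, SNORA9 (LOC120096790) had 50 and 39 in NONO IP against 0 and 1 in Input, and SNORA52 (LOC120100381) had 39 and 34 in NONO IP against 1 and 0 in Input. For SNORA49 the exact 95% interval of the ratio was 13.2 to 2989, which shows how little the input bounds these folds from above.

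The other called members rose by 2.002 to 5.06 on the log2 scale, with adjusted p-values up to 0.00397 (edgeR). They include SNORA16B/SNORA16A (LOC120103261, 41 and 19 reads in NONO IP against 0 and 1 in Input), SNORA64/SNORA10 (LOC120095398, 39 and 28 in NONO IP against 1 and 1 in Input) and SNORA76 (LOC120095463, 25 and 25 in NONO IP against 0 and 1 in Input). SNORA61 (LOC120103281) had 26 and 14 reads in NONO IP and 0 and 1 in Input. SNORA65 (LOC120102007) had 19 and 11 reads in NONO IP and 0 and 3 in Input, and SNORA84 (LOC120098012) had 14 and 12 in NONO IP against 2 and 1 in Input. Some of these calls, on few reads, did not hold with 1 library left out. The call of SNORA65 was lost without Input replicate 1. That of SNORA84 was lost without either NONO IP library or without Input replicate 2.

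**Figure D3:**
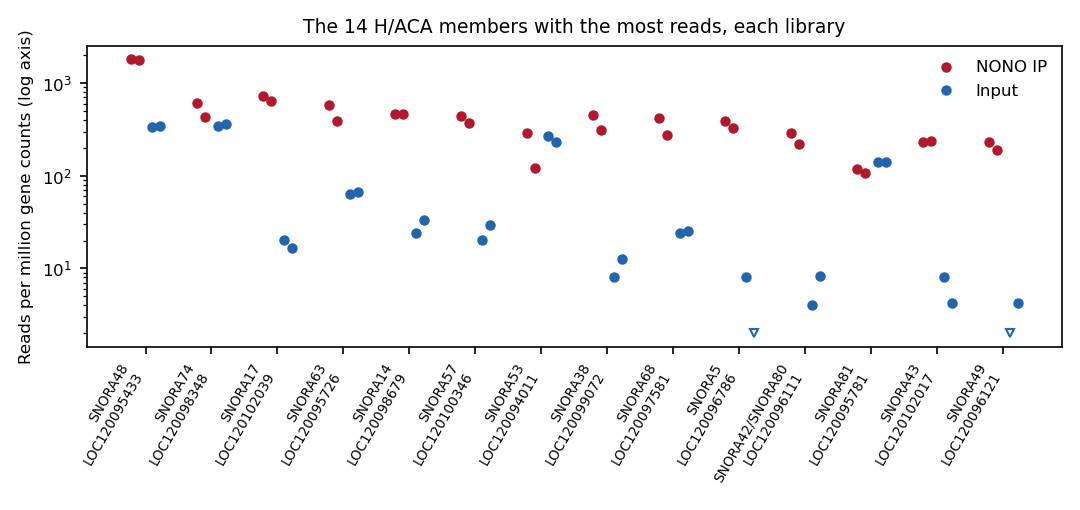
Reads as CPM of gene counts without TMM scaling (log axis) of the 14 H/ACA members with the most reads, in each of the 2 NONO IP and 2 Input libraries; open triangles at the bottom mark libraries with no read. SNORA48, SNORA74, SNORA53 and SNORA81 are high in Input, while SNORA17, SNORA38 and SNORA5 have at most 5 reads in each Input library.

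2 members fell. SNORA81 (LOC120095781) had 33 and 28 reads in NONO IP and 35 and 34 in Input, which is 106 ± 8.28 CPM in NONO IP and 180 ± 0.269 CPM in Input (SD, n = 2 each). It fell by 0.76 in log2 (SE 0.26, adjusted p = 0.0172, edgeR). SNORA53 (LOC120094011) had 80 and 32 reads in NONO IP and 67 and 55 in Input. Its reads per library differ more between the NONO IP libraries than between the groups, at 193 ± 111 CPM in NONO IP and 318 ± 38.3 CPM in Input (SD, n = 2 each). It fell by 0.71 (SE 0.27, adjusted p = 0.0346, edgeR), and its shares of gene counts overlapped between the groups. Neither call held with library totals in place of TMM (adjusted p = 0.331 for SNORA81 and 0.451 for SNORA53) or in the DESeq2 Wald test (0.497 and 0.474). Without NONO IP replicate 2, the adjusted p by edgeR was 0.103 for SNORA81 and 0.515 for SNORA53; it was 0.0555 for SNORA81 without NONO IP replicate 1 and 0.0708 for SNORA53 without Input replicate 1. With no count filter it was 0.238 for SNORA81 and 0.213 for SNORA53 (edgeR).

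SNORA74, also known as U19, had the most reads in Input, was second there per length and showed no call on its main row. LOC120098348 on chromosome 18 had 171 and 114 reads in NONO IP and 85 and 86 in Input, or 493 ± 121 CPM in NONO IP and 447 ± 12.2 CPM in Input (SD, n = 2 each). Its log2 fold change was 0.15 (SE 0.17, adjusted p = 0.475, edgeR). Without NONO IP replicate 2 it was called higher, at 0.43 (adjusted p = 0.0258, edgeR). With library totals it was 0.61 (adjusted p = 0.00477, edgeR), and in RPKM the sign turned, at 928 and 682 RPKM in NONO IP against 1129 and 1185 RPKM in Input. SNORA23 (LOC120100350) had 48 and 19 reads in NONO IP and 18 and 17 in Input, with a log2 fold change of 0.35 (SE 0.37, adjusted p = 0.443, edgeR). Without the same library SNORA23 was called higher too, at 0.88 (adjusted p = 0.0256, edgeR). SNORA74 made up 5.72 ± 0.442% of H/ACA reads in NONO IP and 21.6 ± 1.06% in Input (SD, n = 2 each).

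The make-up of the class therefore differed between the groups, beside its size. The 5 rows with the most input reads (SNORA74, SNORA48, SNORA53, SNORA81 and SNORA23), chosen after their values were seen, held 29.5% and 31.2% of H/ACA reads in NONO IP. In Input they held 70.8% and 71.4%. The other 82 members took 0.632 ± 0.117% of gene counts in NONO IP and 0.0469 ± 0.00114% in Input (SD, n = 2 each), a ratio of 13.5. Since the 5 rows were chosen by their input reads, the choice itself favours both this contrast and a larger ratio for the rest. Per length, the order in Input was SNORA48, SNORA74, SNORA53, SNORA81, SNORA63 and SNORA23, and in NONO IP it was SNORA48, SNORA17, SNORA63, SNORA14, SNORA38 and SNORA57. In NONO IP, the libraries of SNORA63 (1351 and 932 RPKM) span those of SNORA14 (1045 and 1073 RPKM) and overlap those of SNORA38 (1005 and 730 RPKM), so the place of SNORA63 in that order is not resolved. SNORA38 likewise overlaps SNORA57 (896 and 788 RPKM), SNORA68 (978 and 667 RPKM), SNORA74 (928 and 682 RPKM) and SNORA5 (858 and 748 RPKM), so neither are the places after SNORA14. In Input, SNORA81 at 515 and 518 RPKM and SNORA53 at 713 and 607 RPKM did not overlap.

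As pooled shares, the longer H/ACA RNAs lay closer between the groups than the shorter ones. Gene length was read from the counts divided by RPKM, relative to the median member, and ran from 0.858 to 1.84. A gap between 1.16 and 1.33 sets apart 9 longer members, a split chosen after the values were seen and therefore given without a test. The longer ones are rows of SNORA53, SNORA73, SNORA74, SNORA23 and SNORA81. Over all members, tested or not, the longer ones took 0.143 ± 0.0469% of gene counts in NONO IP and 0.0909 ± 0.00470% in Input, and the shorter ones 0.763 ± 0.106% in NONO IP and 0.0715 ± 0.00310% in Input (SD, n = 2 each). Reads on longer members per read on shorter ones came to 0.210 and 0.160 in NONO IP, against 1.36 and 1.19 in Input.

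With no count filter, edgeR called 2 of the 9 longer members higher and none lower, and 33 of the 78 shorter members higher and 1 lower, beside 8.59% and 4.73% of all genes. With the filter, 8 longer members were tested, of which 2 rose, 2 fell and 4 were not called. All 25 tested shorter members rose, but 23 of them had fewer than 23 input reads and passed the filter through NONO IP, so that count and the folds behind it are not set against the longer ones. Per the labels' protocols, libraries were made from bead-captured polyadenylated RNA and size-selected. Mature H/ACA snoRNAs carry no long poly(A) tail, and the part of capture and size selection in these differences was not tested.

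Rows that share a name did not all move alike. The second SNORA74 row, LOC120097670 inside Timm23, had 72 and 35 reads in NONO IP and 4 and 2 in Input. Its log2 fold change of 3.52 (SE 0.51, adjusted p = 1.71e-05, edgeR) stands beside 0.15 for the main row, which is of about the same relative length (1.47 against 1.46 for the second row). Among the SNORA73 rows, an RNA also known as U17 that acts in the cleavage of ribosomal RNA precursors, LOC120094429 inside Rpsa had 29 and 28 reads in NONO IP and 5 and 3 in Input and rose by 2.22 (SE 0.45, adjusted p = 0.000452, edgeR). Both rows inside Phactr4 were not called: LOC120103240 had 27 and 13 reads in NONO IP and 10 and 4 in Input, and LOC120103239 had 21 and 13 in NONO IP against 9 and 5 in Input. LOC120103240 was called higher without NONO IP replicate 2 (1.37, adjusted p = 0.0162, edgeR) and without Input replicate 1 (1.66, adjusted p = 0.0276). With same-named rows summed before the fit, SNORA73 was called higher, at 1.28 (adjusted p = 0.000674, edgeR), and SNORA74 too, at 0.56 (adjusted p = 0.0130, edgeR). How reads that match several copies were counted is not given in the sources used here, so the split between rows of 1 name is uncertain.

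Other names had 1 leading row. SNORA48 had 1136 reads on LOC120095433 and 50 on LOC120094899 inside Nop58, which also rose, by 2.002 (SE 0.48, adjusted p = 0.00191, edgeR). SNORA17 had 381 reads on its leading row and 6 and 1 on its other rows. SNORA5 had 199 reads on LOC120096786 and 4 on LOC120096784, although both lie inside Tbrg4. SNORA71 was spread over 3 rows inside 1 gene: LOC120101985 had 49 and 40 reads in NONO IP and 3 and 4 in Input, LOC120101987 had 18 and 10 in NONO IP against 1 and 1 in Input, and LOC120101989 had 5 and 4 in NONO IP against 0 and 1 in Input. Of these, LOC120101985 was tested and rose by 3.05 (SE 0.41, adjusted p = 8.45e-06, edgeR).

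The 54 members that did not pass the filter had 333 reads in NONO IP and 60 in Input, and none had more than 30 over the 4 libraries. Both NONO IP shares lay above both input shares for 26 of them and below for 2, while 26 overlapped. With no count filter, 8 of them were called higher and 1 lower, beside 8.59% and 4.73% of all 13731 genes. SNORA11 (LOC120094017) had 18 and 10 reads in NONO IP and none in Input (adjusted p = 4.9e-05, edgeR), and the second SNORA55 row (LOC120103284) had 16 and 9 in NONO IP against 0 and 1 in Input. SNORA62/SNORA6 (LOC120094435) had 16 and 8 reads in NONO IP and 1 and 2 in Input, and SNORA48 (LOC120093965) had 14 and 10 in NONO IP against 0 and 1 in Input. The untested SNORA73 row inside Pdia3 (LOC120101981) had 11 and 8 reads in NONO IP and 2 and 3 in Input and was not called. SNORA26 (LOC120102083) had 8 and 6 reads in NONO IP and 3 and 1 in Input. SNORA33 (LOC120100393) had 10 and 3 in NONO IP against 2 and 1 in Input. SNORA15 (LOC120096108) had 5 and 5 in NONO IP against 1 and 4 in Input. None of these was called either. SNORA3/SNORA45 (LOC120100353), with 12 and 2 reads in NONO IP and 0 and 1 in Input, was called higher (adjusted p = 0.0344, edgeR).

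A few untested members were lower in NONO IP. SNORA28 (LOC120093420), inside Eif5, had no read in either NONO IP library, against 6 and 2 in Input. It did not pass the filter; with no filter its adjusted p was 0.0120 (edgeR), and with 3 counts over the NONO IP group as the floor it was at least 4.09-fold lower in NONO IP. Its host Eif5 had 27 and 27 reads in NONO IP and 18 and 4 in Input. SNORA2/SNORA34 (LOC120093961) had no read in NONO IP, against 1 and 1 in Input, and its groups did not overlap either. The other members with no read in NONO IP had at most 2 reads in Input.

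The genes that hold the members were compared next. By the RefSeq gene table, 71 members lie inside another gene, which is called the host here without a check of strand; 59 different hosts were found, and 58 of them are listed. Of 21 tested hosts, 4 rose, 14 fell and 3 were not called, with a median log2 fold change of −1.40, beside 29.8% of all tested genes called higher, 26.9% lower and a median of 0.02. In 9 pairs both member and host were tested, and in 7 of them the member rose while the host fell; Rpsa stands in 2 pairs. In 8 of the 9 pairs the member had fewer than 23 input reads and was tested through its reads in NONO IP, so a rise of the member was favoured by the choice of pairs. The host calls of Tomm20 and Iars1 were lost without single libraries, Tomm20 without either NONO IP library or Input replicate 2 (adjusted p 0.0553 to 0.0796, edgeR) and Iars1 without NONO IP replicate 1 or either input (0.0585 to 0.167).

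Rpsa, a small-subunit ribosomal protein gene, had 35 and 47 reads in NONO IP and 130 and 110 in Input and fell by 2.13 in log2 (SE 0.19, adjusted p = 4.44e-08, edgeR). Inside it, SNORA73 (LOC120094429) and SNORA62/SNORA6 (LOC120094436) both rose, and the second had 30 and 13 reads in NONO IP and 3 and 2 in Input. Without NONO IP replicate 1 that second member was not called (adjusted p = 0.136, edgeR). Rpl6, a large-subunit ribosomal protein gene, had 6 and 7 reads in NONO IP and 32 and 24 in Input and fell by 2.67 (SE 0.39, adjusted p = 1.89e-05, edgeR), beside a rise of 4.85 for its SNORA42/SNORA80. Rps2 had 9 and 12 reads in NONO IP and 31 and 26 in Input, and its SNORA64/SNORA10 rose by 4.35. Pabpc4, a poly(A)-binding protein gene, had 22 and 24 reads in NONO IP and 42 and 46 in Input, and its SNORA55 (LOC120103283) had 16 and 15 in NONO IP against 0 and 2 in Input. In each of these host genes the read counts of the groups did not overlap.

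Eif4a1, the host of the leading SNORA48 row, had 20 and 14 reads in NONO IP and 18 and 10 in Input (log2 fold change −0.30, adjusted p = 0.526, edgeR). Ep400, a chromatin remodelling gene and host of SNORA49, had 16 and 15 reads in NONO IP and 8 and 13 in Input (−0.02, adjusted p = 0.966, edgeR). Neither host was called, while both members were. Tpt1 and Rpl21 fell too, Tpt1 with 25 and 15 reads in NONO IP against 49 and 52 in Input, but their members SNORA31 and SNORA27 had a single read each. Over all 71 members with a listed host, tested or not, members held 2092 and 1556 reads in NONO IP and 349 and 320 in Input. Their 58 hosts held 705 and 686 reads in NONO IP and 816 and 762 in Input. This gave 2.97 and 2.27 member reads per host read in NONO IP, against 0.428 and 0.420 in Input. Reads on an intronic member cannot be told from reads of the unspliced host transcript at the same place.

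**Figure D4:**
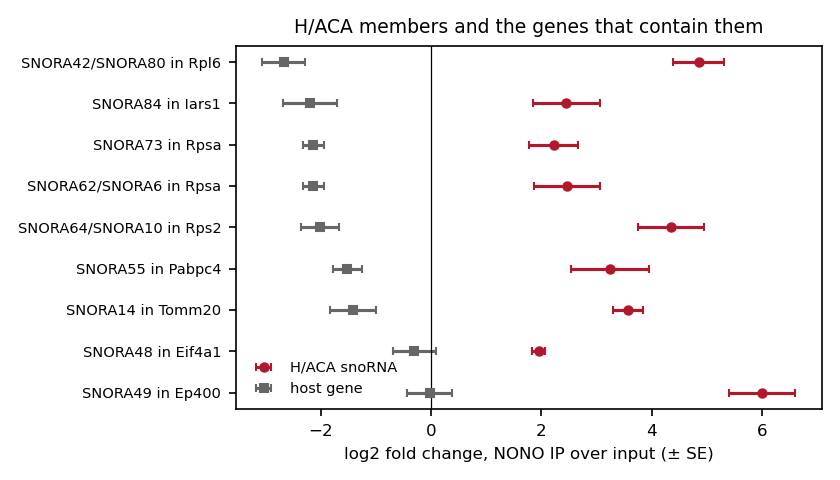
Log2 fold change of NONO IP over Input (x axis, ± SE, edgeR) of 9 H/ACA members (circles) and of the genes that contain them (squares), for the pairs in which both were tested. Each member lies to the right of its host; 8 of the 9 members passed the filter through their NONO IP reads.

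Genes of the H/ACA particle, its assembly and its RNA processing were too thinly counted for most tests. Of the 20 listed for this purpose, 18 are in the read table, with 207 reads in NONO IP and 121 in Input, and 2 were tested. Tent4b, a poly(A) polymerase gene that acts in the trimming of snoRNA ends, had 45 and 39 reads in NONO IP and 6 and 7 in Input and rose by 2.09 (SE 0.36, adjusted p = 9.4e-05, edgeR). Dkc1, the pseudouridine synthase gene, had 28 and 25 reads in NONO IP and 25 and 23 in Input, with a log2 fold change of −0.44 (SE 0.28, adjusted p = 0.193, edgeR). The core protein gene Gar1 had 4 and 7 reads in NONO IP and 1 and 4 in Input, Nop10 had none in NONO IP against 0 and 2 in Input, and Nhp2 had 1 and 0 in NONO IP against none in Input. Changes of Gar1, Nop10 and Nhp2 were not detectable at this depth. Terc, the telomerase RNA, which also ends in an H/ACA domain, had 0 and 2 reads in NONO IP and none in Input. The 4 C/D particle genes Fbl, Nop56, Nop58 and Snu13 had 26 reads in NONO IP and 21 in Input, and none was tested.

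The NONO IP libraries differed from each other over the members. Among the 38 members with at least 20 reads in NONO IP, the chi-square between these libraries was 3.14 per gene, where 1 is sampling noise alone, and over the 2942 other such genes it was 1.40. Between the inputs it was 0.151 over 6 members and 1.13 over 2099 other genes. In 31 of the 38 members the RPKM was higher in NONO IP replicate 1, and the ratio of replicate 1 to replicate 2 ran from 0.789 to 2.29 over the 33 tested members. SNORA53, SNORA23 and SNORA74 (LOC120097670) were among those with more reads in replicate 1 (80 against 32, 48 against 19 and 72 against 35). The pooled ratio of NONO IP to Input was 6.24 with replicate 1 alone and 4.91 with replicate 2 alone.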

How the data were processed

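Read counts per gene in 4 RIP-seq libraries were used as the authors deposited them: whole reads, not normalised. RPKM values, named so per the file headers, were also deposited; the authors scaled reads by gene length and a library total. HISAT2, HOMER and the build mRatBN7.2 were involved, per the submitters' processing notes; the sources used here do not give their roles, the counting program, its strand setting or how it treated reads with several positions. No sequences or coordinates were used. Groups and replicate numbers came from the titles.

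Counts were tested with edgeR 4.0.16 (R 4.3.3; TMM, filterByExpr, quasi-likelihood), which kept 2920 genes with 91.1% of counts and at least 23 reads each, and p-values were adjusted by Benjamini-Hochberg at a threshold of 0.05. TMM factors were 1.17 and 1.18 in NONO IP and 0.844 and 0.861 in Input, and the common dispersion was 0.00458. The SE came from the log2 fold change and the F statistic (its size over the square root of F). Levels are TMM-scaled CPM. Alternatives used DESeq2 1.42.0 and limma 3.58.1. A floor is 3 counts over a group, and intervals are at 95% confidence. Hosts are RefSeq genes (assembly GRCr8, used for names and neighbours) whose span holds a member on the same chromosome; the table matched 85 of 87 members and gives no strand, so the strand intended for this rule was not checked. It places 10 members on another chromosome than the files do. The members, gene lists and comparisons were chosen with earlier results of these data known. The genes named are all tested members, the 10 untested members with the most reads, tested genes of the particle list, the tested hosts with the lowest adjusted p and the hosts of named members; others were chosen after their values were seen. The fit was tested on simulated counts.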

Additional observations from a re-analysis of the deposited data

How the results depend on the processing

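The pooled share kept its direction under every alternative run, with ratios of 4.79 to 5.68 by denominator, unit or most abundant member and 4.91 to 6.24 without 1 library. The H/ACA to C/D ratio ran from 4.54 to 4.89 without 1 library and fell to 2.81 without the leading member of each class. The ratio of longer to shorter members was 0.145-fold in NONO IP, 0.125 to 0.166 without 1 library and 0.0987 without LOC120095433, an alternative chosen after seeing the data. No call of a single member changed its sign. With at least 50 counts in 2 libraries, 13 members were tested, of which 11 were higher and 1 lower (42.3% and 41.2% of all 600 genes); 1 host was higher, 2 were lower, and 0 genes of the particle list were tested, so the list had 0 calls. The members called higher numbered 30 of 33 with library totals (41.7% of all genes) and 22 of 32 in the DESeq2 Wald test (11.9%). With same-named rows summed they numbered 27 of 30 (29.8%). Without 1 library, the median log2 fold change of the members tested in the main fit ran from 3.33 to 3.82. The members called lower numbered 0 with library totals (15.2% of all genes), 0 in the DESeq2 Wald test (6.42%) and 1 with no count filter (4.73%). With no count filter, 2 of 18 genes of the particle list were higher (Tent4b and Znhit6) and 1 lower (Tgs1), beside 8.59% and 4.73% of all genes. On log2(RPKM + 1) and on log2(RPKM + 0.1), 3 of 12 were lower, beside 18.8% and 15.1% of all genes. On each of these scales 1 was higher, beside 5.19% and 4.59%. The hosts called higher (4) numbered 1 of 27 in the DESeq2 Wald test (11.9% of all genes). On the RPKM scales they numbered 0 of 52 each (5.19% and 4.59%). Those called lower (14) numbered 7 of 27 in the DESeq2 Wald test (6.42%). The causes were not tested. Of the 27 members called higher, 15 kept the call in all alternatives that tested them, and 22 did when the RPKM scales are set aside. Of the 33 members tested in the main fit, 27 had fewer than 23 input reads and were tested through NONO IP. The alternatives refit the same libraries, so neither these counts nor the medians of those members are free of that choice. With library totals the median of all tested genes shifted to 0.48, and that of the members to 3.98. The replicate numbers were not shown to pair the libraries (correlation of deviations 0.0376 over all tested genes). With the replicate number as a block, 27 members were higher and 2 lower, beside 29.8% and 27.6% of all genes. At this depth 64 members had 3 input reads or fewer, which limits their folds.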
